A study of Homo sapiens with 6 samples.

Results

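Of the 12499 genes in the count table, 25 had at least 50 counts in each of the 3 HaCaT libraries labeled LV-NC and at most 10 counts in each of the 3 libraries labeled LV-ATF7. The 25 genes were selected on these same raw counts, so the difference between the groups in them is a description and was not tested. Genes whose symbols begin with KRT, SERPINB, S100, HOX, COL, WNT, IFI, OAS, MMP, AKR1 or DACT, and *DHRS2*, were left out by the rule, which removed *COL5A3*, *COL20A1* and *DACT3* from 28 genes that met both limits. With the groups exchanged and the same symbols left out, 62 genes met the limits. The genes were not strictly limited to the LV-NC libraries, since 18 of the 25 had at least 1 count in every LV-ATF7 library and 0 of the 25 were at 0 in all 3.

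HaCaT is a human keratinocyte line that divides without limit in culture. All 6 libraries came from cells infected with lentivirus for 48 hours and then cultured in high glucose for 24 hours, and the virus carried either *ATF7* (LV-ATF7) or a negative control (LV-NC). No uninfected or normal-glucose library was analyzed, and nothing in the labels says that the replicates were separate cultures, so p-values measure only the spread between these libraries. *ATF7*, a transcription factor that binds cAMP response elements, was at 50.6, 46.4 and 52.2 CPM (counts scaled by TMM to a common library size) in LV-NC replicates 1, 2 and 3 and at 25.2 ± 3.09 CPM (SD, n = 3) over the LV-ATF7 replicates, each of which lay below every LV-NC library. It was therefore lower in the libraries labeled LV-ATF7 (log2 fold change -0.98, SE 0.12, adjusted p = 1.89e-04 by edgeR's quasi-likelihood test), against the label, and each direction below is that of the labels only.

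The 25 genes have no single known role. They include an anchor of a lipid kinase (*EFR3B*), a sphingomyelinase (*SMPD3*), an ephrin (*EFNA2*), an adhesion molecule (*CADM2*), a peptide receptor (*GALR2*), a peptide precursor (*QRFP*), RNA-binding proteins (*MEX3B*, *CELF5*) and a homeobox transcription factor (*PROX1*). At the plasma membrane, lipids such as phosphoinositides, sphingomyelin and ceramide, and the sugar chains of heparan sulfate outside it, shape how cells receive signals and release vesicles. *CST6*, a cystatin that restrains lysosomal proteases during cornification, has an established role in the skin barrier.

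Together the 25 genes took 3302, 4084 and 3728 counts in LV-NC replicates 1, 2 and 3 and 110, 106 and 119 counts in the LV-ATF7 replicates, out of total counts between 16686472 and 20562768 per library. *EFR3B* and *PAG1* held 36.3% of the LV-NC counts of the set. The mean level in LV-NC ran from 3.08 CPM (*CELF5*) to 39.8 CPM (*EFR3B*) with a median of 4.66 CPM, below the median of 32.5 CPM over all genes of the table, of which 18.0% lay under 4.66. The median difference of LV-ATF7 from LV-NC, in log2 CPM with a prior count of 2, was -4.08 over the 25 genes (from -6.78 to -2.91) and 0.01 over all genes. All 25 passed an adjusted p under 0.05 as lower in LV-ATF7, which the selection itself brings about, whereas 32.9% of the 12462 genes tested were called lower and 34.7% higher.

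**Figure D1:**
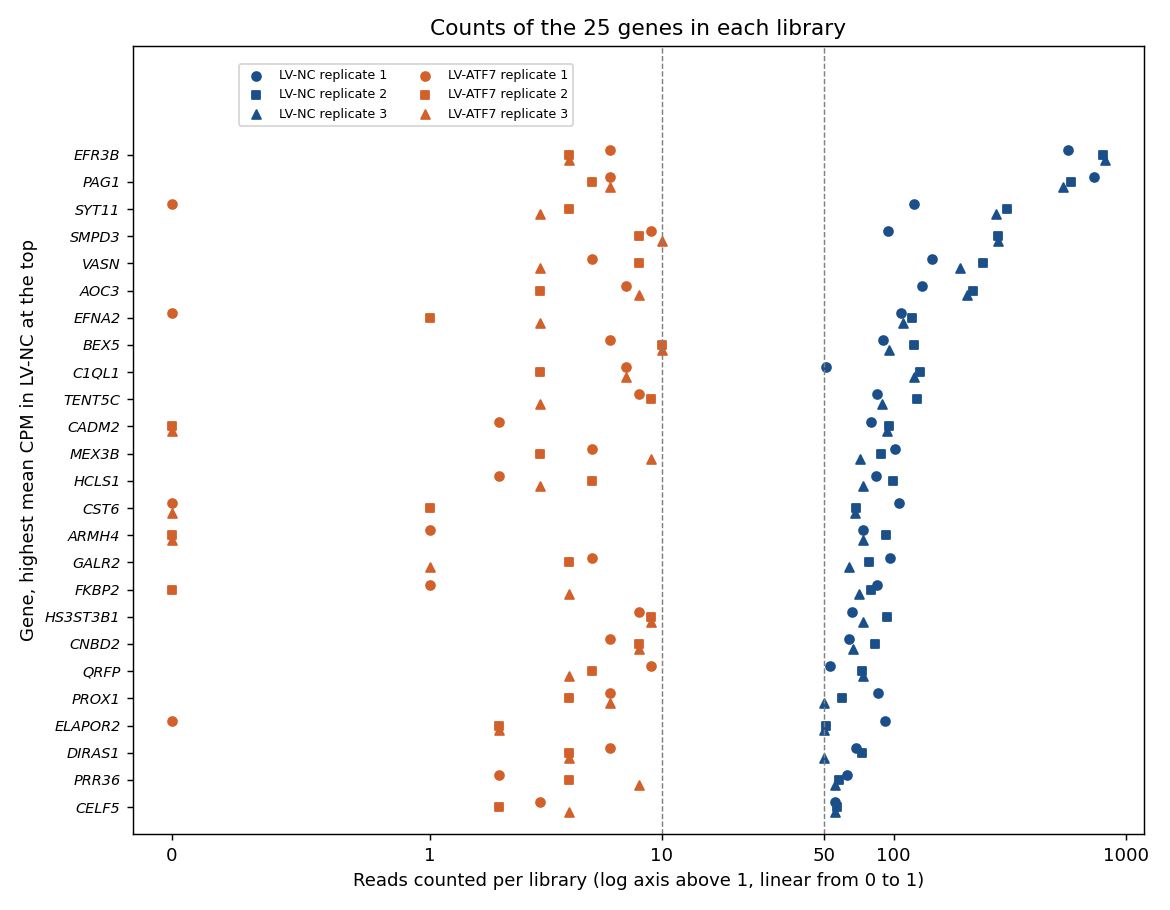
Reads counted in each of the 6 libraries (horizontal axis, logarithmic above 1 and linear from 0 to 1) for the 25 genes, ordered by mean CPM in LV-NC, with 1 point per library and dashed lines at the limits of 10 and 50 counts. *EFR3B* and *PAG1* lie far above the limit of 50 in LV-NC, while *PROX1*, *ELAPOR2* and *DIRAS1* reach it at 50 counts in LV-NC replicate 3.

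The most abundant gene, *EFR3B* (chromosome 2, 25042130 to 25159137, GRCh38, plus strand), encodes a palmitoylated plasma membrane protein that anchors the phosphatidylinositol 4-kinase PI4KA. Its counts were 564, 798 and 818 in LV-NC replicates 1, 2 and 3 and 6, 4 and 4 in LV-ATF7. These gave 39.8 ± 8.76 CPM (SD, n = 3) against 0.253 ± 0.0712 CPM, a ratio of pooled counts per effective library size of 157 (95% exact binomial interval 93.6 to 288). That interval, like the other intervals given, covers counting error only. *EFR3A*, the paralog used widely by other cells, stood at 151 ± 27.0 CPM in LV-NC and 121 ± 8.91 CPM in LV-ATF7 and did not pass the test (log2 fold change -0.32, adjusted p = 0.0686); the difference between the paralogs was not tested. Of 6 measured genes of the same complex, 4 were lower and 1 higher, against 32.9% and 34.7% of all genes. The log2 fold changes of *HYCC2* and *HYCC1*, the hyccin subunits, were -2.03 and -1.77 (adjusted p = 3.28e-05 and 1.47e-05), and *TTC7A* and *TMEM150A* fell by 1.16 and 0.79. *TTC7B*, the alternative to *TTC7A*, rose to 15.6 ± 1.64 CPM (log2 fold change 1.55, adjusted p = 5.18e-04), and the kinase itself, *PI4KA*, had a log2 fold change of 0.06 (adjusted p = 0.587).

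*PAG1*, a transmembrane adaptor of lipid rafts that recruits the kinase CSK and so restrains SRC family kinases, had 731, 580 and 538 counts in LV-NC and 6, 5 and 6 in LV-ATF7. The ratio was 110 (interval 68.5 to 189), and the lowest LV-NC library stood 90.8 times above the highest LV-ATF7 library in CPM. Among its partner kinases, *FYN* was also nearly absent from LV-ATF7, with 421, 498 and 405 counts in LV-NC against 22, 23 and 22 (log2 fold change -4.31, SE 0.16, adjusted p = 1.03e-06). In contrast *SRC* rose by a log2 fold change of 0.71 (adjusted p = 0.00432) and *LYN* by 0.44 (adjusted p = 0.00740, 0.0539 without LV-NC replicate 3 and 0.0809 with library size only). *CSK* and *YES1* had log2 fold changes of -0.04 and -0.05 and did not pass. *HCLS1*, the blood cell homolog of cortactin and a substrate of SRC family kinases, belonged to the 25, with 84, 99 and 74 counts in LV-NC and 2, 5 and 3 in LV-ATF7 (ratio 26.0, interval 13.9 to 54.8).

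Vesicle and sphingolipid genes followed in abundance. *SYT11*, a synaptotagmin of vesicle traffic, had 123, 308 and 277 counts in LV-NC and 0, 4 and 3 in LV-ATF7 (ratio 102, interval 49.4 to 255). Its relatives in the table went the other way: 7 of 8 other synaptotagmins were higher in LV-ATF7, against 34.7% of all genes. *SYT17* rose from 0.566 ± 0.485 to 19.8 ± 1.16 CPM (log2 fold change 5.12, adjusted p = 3.20e-05) and *SYT8* from 24, 15 and 15 counts to 389, 423 and 464 (log2 fold change 4.54, adjusted p = 2.20e-06), while *SYT1* had a log2 fold change of -0.78 and did not pass (adjusted p = 0.146).

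*SMPD3* (chromosome 16, 68358325 to 68448688, minus strand) encodes neutral sphingomyelinase 2, which makes ceramide from sphingomyelin and takes part in exosome release. It had 95, 283 and 282 counts in LV-NC and 9, 8 and 10 in LV-ATF7, a ratio of 24.7 (interval 16.8 to 37.8). Among its exon bases, 13.9% are shared with *PRMT7* or another gene. The lysosomal acid sphingomyelinase *SMPD1* showed a difference of like size from a higher level, with 1654, 2105 and 1943 counts in LV-NC and 87, 96 and 93 in LV-ATF7 (103.8 ± 13.2 against 4.96 ± 0.156 CPM, log2 fold change -4.38, SE 0.14, adjusted p = 7.93e-07). The neutral enzyme *SMPD2* rose by 0.59 (log2, adjusted p = 0.00488), and *SMPD4* had a log2 fold change of -0.26 (adjusted p = 0.0727). Over 16 measured enzymes of sphingomyelin and ceramide other than *SMPD3*, 6 were lower, 3 higher and 7 not called, so that the share called lower was near the 32.9% of all genes. The sphingosine kinase *SPHK1* fell by 2.55 and the sphingomyelin synthase *SGMS2* by 1.47 (adjusted p = 4.48e-05 and 8.91e-05), whereas the ceramide synthase *CERS4* rose by 2.27 and acid ceramidase *ASAH1* by 0.91 (adjusted p = 5.05e-04 and 6.22e-05).

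Of the 8 lists of partner genes, that of heparan sulfate had the largest share of genes called. *HS3ST3B1* (chromosome 17, 14301083 to 14349404, plus strand), which adds 3-O-sulfate to heparan sulfate chains, had 66, 94 and 74 counts in LV-NC and 8, 9 and 9 in LV-ATF7. Its ratio of 9.10 (interval 6.05 to 14.2) was the lowest of the 25 genes. Of 10 other measured enzymes of the pathway, 8 were lower and 2 higher in LV-ATF7, against 32.9% and 34.7% of all genes. The chain polymerases *EXT1* and *EXT2* fell by 0.80 and 1.09 in log2 units (adjusted p = 9.63e-05 and 2.04e-05) and the epimerase *GLCE* by 1.23 (adjusted p = 6.79e-05). *HS3ST2*, another 3-O-sulfotransferase, had 41, 57 and 52 counts in LV-NC and 3, 1 and 5 in LV-ATF7 and missed the limit of 50 in 1 library (log2 fold change -4.02, adjusted p = 9.75e-05). The sulfotransferases *NDST1* and *HS3ST1* rose, by 2.21 and 0.57 (adjusted p = 3.16e-06 and 0.00991).

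**Figure D2:**
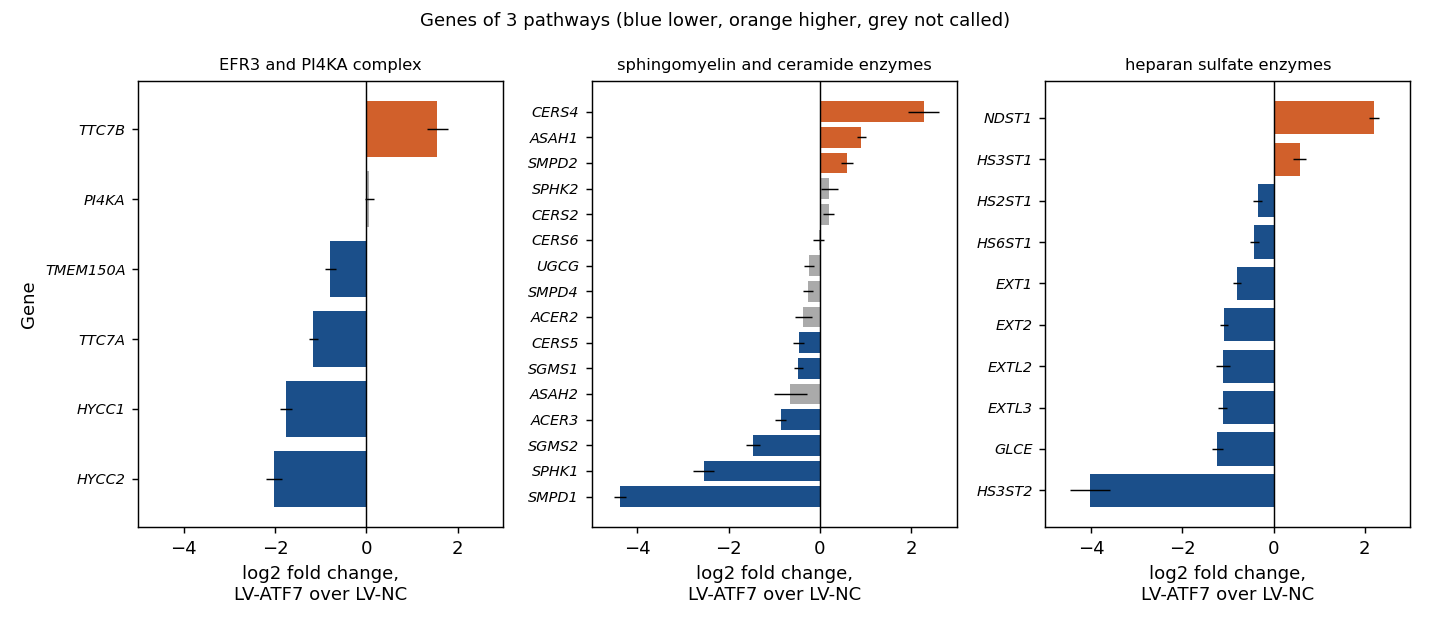
Difference of LV-ATF7 from LV-NC as a log2 fold change (bars, with the standard error) for the measured partners of *EFR3B*, *SMPD3* and *HS3ST3B1*, from the fit over all genes, with genes called lower in blue, higher in orange and not called in grey. In the heparan sulfate panel 8 of 10 enzymes are lower, and *SMPD1* at -4.38 is the lowest of the sphingolipid panel.

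At the cell surface, *VASN* (vasorin, a membrane protein that binds TGF-beta) had 146, 244 and 194 counts in LV-NC and 5, 8 and 3 in LV-ATF7 (ratio 36.9, interval 22.5 to 65.0). Of 6 measured TGF-beta ligands, receptors and the sheddase *ADAM17*, 3 were lower and 2 higher, against the same 32.9% and 34.7% of all genes: *TGFBR2* fell by 1.01 and *TGFB3* by 1.62, and *TGFB2* rose by 1.80 (adjusted p = 2.98e-04, 0.00251 and 0.00670).

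*EFNA2*, a membrane-anchored ephrin that signals to Eph receptors on neighboring cells, had 108, 120 and 110 counts in LV-NC and 0, 1 and 3 in LV-ATF7 (ratio 85.4, interval 33.0 to 315). The spread between LV-NC libraries was small, 6.15 ± 0.318 CPM. Per kilobase of exon, *EFNA2* was the highest of the 25 genes in LV-NC, at 6.48 CPM per kb, above *CST6* at 5.81 and *BEX5* at 5.26, over exons of 949 bases in all. Of its relatives *EFNA1* rose (log2 fold change 1.37, adjusted p = 0.00177), and *EFNA3*, *EFNA4* and *EFNA5* were not called. The receptor *EPHA3* fell by 1.19 (adjusted p = 0.00105), *EPHA4* and *EPHA1* rose by 1.41 and 0.96 (adjusted p = 4.71e-05 and 1.02e-04), and *EPHA2* and *EPHA10* did not pass.

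*CADM2*, an immunoglobulin-type adhesion molecule known from synapses, had 80, 96 and 94 counts in LV-NC and 2, 0 and 0 in LV-ATF7, so its ratio of 136 has an interval from 37.4 to 1132. Its relative *CADM4* rose by 0.77 in log2 units (adjusted p = 0.0151), a call lost without LV-NC replicate 2 or 3 or LV-ATF7 replicate 3 (adjusted p = 0.0652, 0.0668 and 0.0618) and with library size only (0.0504). *AOC3*, vascular adhesion protein 1, an amine oxidase of the cell surface, had 133, 221 and 207 counts against 7, 3 and 8 (ratio 31.5, interval 19.7 to 53.5). The groups of each of these genes lie far apart, since the rule required it.

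Secreted peptides, their receptors and inhibitors made up a further group. *CST6* (chromosome 11, 66011841 to 66013505, plus strand), cystatin M/E, had 106, 69 and 68 counts in LV-NC and 0, 1 and 0 in LV-ATF7. With a single count in LV-ATF7 the ratio of 246 has an interval from 43.7 to 9740. Its relative *CST7*, cystatin F, had 113, 40 and 35 counts against 0, 0 and 2, and *CST3*, cystatin C, had a log2 fold change of -0.18 (adjusted p = 0.332). The proteases that cystatin M/E inhibits were themselves lower or not called: *LGMN* (legumain) fell by 2.34, from 273 ± 40.3 to 54.0 ± 0.534 CPM, and *CTSV* had a log2 fold change of -3.23, from 22.5 ± 8.37 to 2.39 ± 0.544 CPM (adjusted p = 3.66e-06 and 8.34e-05), whereas *CTSL* had a log2 fold change of -0.31 (adjusted p = 0.0612). *TGM1*, the transglutaminase of the cornified envelope, rose by 1.39 (adjusted p = 8.72e-05).

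*GALR2*, a receptor for the neuropeptide galanin, had 97, 78 and 64 counts in LV-NC and 5, 4 and 1 in LV-ATF7 (ratio 24.2, interval 12.9 to 51.0). Galanin itself, *GAL*, had 6, 79 and 82 counts against 13, 22 and 26, so that LV-NC replicate 1 lay below every LV-ATF7 library and the gene did not pass (adjusted p = 0.116). *QRFP*, the precursor of the neuropeptide 26RFa, had 53, 73 and 74 counts against 9, 5 and 4 (ratio 11.2, interval 6.93 to 19.3). *C1QL1*, a secreted C1q-like protein of synapses, had 51, 130 and 123 against 7, 3 and 7 (ratio 18.1, interval 11.1 to 31.4), and its relative *C1QL4* fell by 1.62 (adjusted p = 0.00460).

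Among the regulators of RNA, *TENT5C*, a noncanonical poly(A) polymerase, had 85, 126 and 89 counts in LV-NC and 8, 9 and 3 in LV-ATF7 (ratio 15.2, interval 9.64 to 25.2). Both of its measured relatives fell, *TENT5A* by 1.16 and *TENT5B* by 1.60 in log2 units (adjusted p = 7.62e-04 and 0.00903). *MEX3B*, an RNA-binding ubiquitin ligase, had 101, 88 and 72 counts against 5, 3 and 9 (ratio 15.5, interval 9.51 to 27.0), while *MEX3A* rose by 2.13 (adjusted p = 4.56e-05) and *MEX3C* and *MEX3D* were not called. *CELF5*, a splicing regulator, had the lowest LV-NC mean and the smallest spread, with 56, 57 and 56 counts against 3, 2 and 4, and *CELF1*, at 250 CPM in LV-NC, had a log2 fold change of 0.08 (adjusted p = 0.431).

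The lineage transcription factor *PROX1*, a homeobox protein of lymphatic endothelium, had 86, 60 and 50 counts in LV-NC and 6, 4 and 6 in LV-ATF7 (ratio 12.4, interval 7.43 to 22.1). Per kilobase of exon it was the lowest of the 25, at 0.397 CPM per kb. *DIRAS1*, a RAS-like GTPase, had 69, 73 and 50 counts against 6, 4 and 4, and *BEX5*, of an X-linked family named for expression in brain, had 90, 122 and 96 against 6, 10 and 10. The relatives of *BEX5* moved in opposite directions, with *BEX2* lower by log2 fold change -1.19 and *BEX3* higher by 1.32 (adjusted p = 0.0108 and 1.20e-05).

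*FKBP2* (chromosome 11, 64241003 to 64244132, plus strand), a peptidyl-prolyl isomerase of the endoplasmic reticulum, is a gene that most cell types use, yet it had 1, 0 and 4 counts in LV-ATF7 against 85, 80 and 71 in LV-NC (ratio 47.7, interval 20.2 to 148). Its LV-NC level was itself low, 4.28 ± 0.234 CPM. The 4 nearest genes of the table were all higher in LV-ATF7. *PPP1R14B*, 348 bases away on the other strand, rose by 1.71 and *VEGFB*, 2210 bases away, by 3.51 in log2 units (adjusted p = 7.34e-04 and 1.34e-06), and *DNAJC4* and *PLCB3* rose by 1.35 and 0.34. The call of *PLCB3* (adjusted p = 0.0372) was lost without LV-NC replicate 3 or any of the LV-ATF7 libraries, with an adjusted p from 0.0503 to 0.110, and with library size only (log2 fold change 0.18, adjusted p = 0.160). Of 11 other FKBP genes 3 were lower, 5 higher and 3 not called (32.9% lower and 34.7% higher over all genes), with *FKBP5* falling by 2.04 and *FKBP8* rising by 1.95 (adjusted p = 1.04e-04 and 5.50e-06).

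The remaining genes were *ARMH4*, with 74, 93 and 74 counts against 1, 0 and 0, *ELAPOR2*, with 92, 51 and 50 against 0, 2 and 2, *CNBD2*, a cyclic nucleotide-binding domain protein, with 64, 83 and 67 against 6, 8 and 8, and *PRR36*, a proline-rich protein, with 63, 58 and 56 against 2, 4 and 8. *ELAPOR1*, the relative of *ELAPOR2*, fell by 1.28 (adjusted p = 0.00666). In *CNBD2* 15.9% of the exon bases are shared with *SCAND1* on the other strand and *PRR36* shares some with a long noncoding RNA, and the sources used here do not say whether the counting used strand. Of the 25 genes, 18 share no exon bases with another gene.

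**Figure D3:**
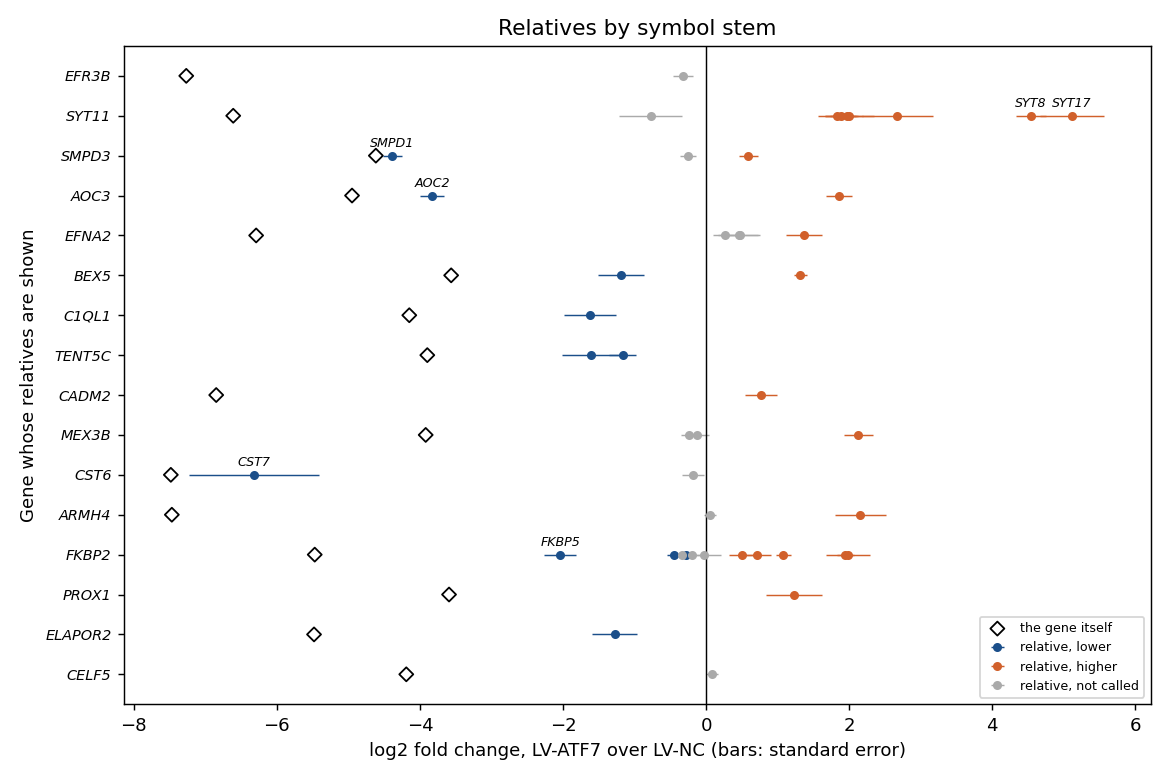
Difference of LV-ATF7 from LV-NC, as a log2 fold change with its standard error for relatives sharing a symbol stem with 16 of the 25 genes, colored by the call, and open diamonds for the selected genes themselves, whose fitted values depend on the prior count where LV-ATF7 is near 0. *SMPD1*, *AOC2* and *CST7* lie near their selected relatives, and 7 of 8 synaptotagmins lie on the opposite side from *SYT11*, all but *SYT1*.

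Over 57 relatives by symbol stem, 12 were lower (21.1%), 28 higher (49.1%) and 17 not called, against 32.9% and 34.7% of all genes. The stem PRR, with 12 of the 57, marks a shared name and no shared descent.

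The LV-NC libraries did not agree equally well with each other. For these 25 genes the largest fold between LV-NC replicates 2 and 3 was 1.32 (*DIRAS1*), whereas replicate 1 was lower than both others for 14 genes and higher than both for 8. In *SMPD3*, *C1QL1* and *SYT11* replicate 1 reached 0.326, 0.392 and 0.409 of the mean of replicates 2 and 3, and in *ELAPOR2* and *PROX1* it stood at 1.77 and 1.52 times that mean. Of the 5071 other genes in the same range of LV-NC level, 40.8% were lower and 48.2% higher in replicate 1 than in both others. The rule kept out genes under 50 counts in replicate 1, a limit the 5071 did not have to meet. The shares are therefore not directly comparable. The proliferation gene *MKI67* had 2499 counts in replicate 1 against 13761 and 14020 in replicates 2 and 3, and 3283, 3762 and 2937 in LV-ATF7; its part in the spread of the 25 genes was not tested. When LV-NC replicate 1 was left out, 47 genes met the limits. All 25 were among them by construction, since leaving out a library removes a condition and can only add genes.

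**Figure D4:**
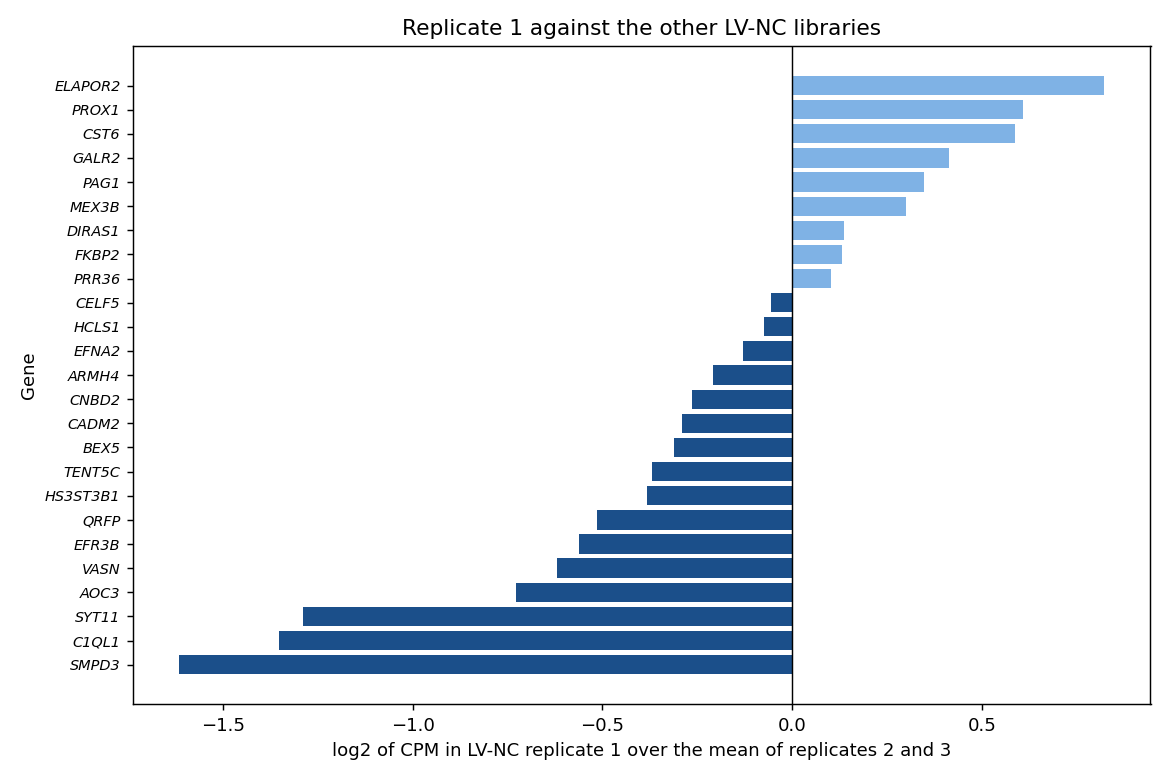
Log2 ratio of the CPM in LV-NC replicate 1 to the mean of replicates 2 and 3 for each of the 25 genes, 1 bar per gene, from the lowest at the bottom. The bars run from -1.62 (*SMPD3*) to 0.82 (*ELAPOR2*).

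The limits cut through a continuous range. Just inside stood *DIRAS1*, *ELAPOR2* and *PROX1*, with 50 counts in their lowest LV-NC library, and *BEX5* and *SMPD3*, with 10 in their highest LV-ATF7 library. Just outside stood *RUNDC3A* and *TRPV3*, a cation channel of keratinocytes, with 49 counts in their lowest LV-NC library. *BACH2*, a transcription factor best known from B cells, had 245, 226 and 205 counts in LV-NC and missed only through 11 counts in LV-ATF7 replicate 1. In all, 166 genes were at 10 counts or fewer in every LV-ATF7 library but under 50 in some LV-NC library, and 33 genes were at 50 or more in every LV-NC library with a highest LV-ATF7 count from 11 to 20.

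The 25 genes lay on 14 chromosomes, with 4 each on chromosomes 17 and 19 (16.0% each). Those chromosomes held 6.28% and 7.36% of the genes of the table with a position, and the difference was not tested. The closest pair, *CELF5* and *DIRAS1*, was 503285 bases apart. Neighbors were taken only among the genes of the table, so a gene without a row may lie closer. In 2 places the neighbor of a selected gene showed a difference of like size. *AOC2* lies 477 bases from *AOC3* on the same strand, at chromosome 17, and had 394, 413 and 328 counts in LV-NC and 24, 26 and 30 in LV-ATF7 (log2 fold change -3.83, adjusted p = 1.74e-06), although reads could be divided between such similar paralogs by the counting. *ZACN*, whose gene body overlaps that of *GALR2*, had 69, 35 and 53 against 6, 4 and 2 (log2 fold change -3.69, adjusted p = 1.91e-04). *AOC1*, which is not a neighbor, rose by 1.86. Other nearest genes went either way. Lower by less than these were *ARMCX5*, 443111 bases from *BEX5* (log2 fold change -1.59), and *VGLL3*, 801959 bases from *CADM2* (-1.26). So were *KIF18B* next to *C1QL1* (-1.42), *EVI5L* next to *PRR36* (-1.07), *SLC39A3* next to *DIRAS1* (-0.88) and *ABL1* next to *QRFP* (-0.61). The call of *KIF18B* (adjusted p = 0.0351) was lost without any library other than LV-NC replicate 1 (adjusted p from 0.0892 to 0.105). Among the next genes in distance, *PMP22*, 880373 bases from *HS3ST3B1*, had a log2 fold change of -2.25 (adjusted p = 7.94e-04). *EAF2*, 174256 bases from *HCLS1*, and *ARID4A*, 246 bases from *ARMH4*, had -2.05 and -1.52 (adjusted p = 2.48e-05 and 2.20e-05). *GON4L*, 109 bases from *SYT11* on the other strand, had a log2 fold change of -0.38 and did not pass (adjusted p = 0.0598). *DNMT3A*, the gene of the table nearest to *EFR3B* at 68718 bases, rose by 1.63 (adjusted p = 0.00566). These neighbors were chosen for naming after their values were seen. Of the 25 nearest genes 11 were lower (44.0%), 4 higher (16.0%) and 10 not called. Of the 100 genes made up by the 4 nearest to each, 30 were lower and 30 higher, close to the 32.9% and 34.7% of all genes.

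Promoter sequences, from 250 bases before to 50 bases after the RefSeq start (GRCh38.p14), were matched by symbol for 16 of the 25 genes and for 10137 genes of the table, all listed starts of a gene being searched. Stretches ahead of the start are shown for *EFR3B*, the most abundant gene, and *EFNA2*, the highest per kilobase, with the GC box (GGGCGG on either strand) in capitals, and for *HCLS1*, the only 1 of the 16 with an AP-1 site (TGAGTCA on either strand), with that site in capitals. They lie at chr2:25041826-25042075 (plus strand), chr19:1285623-1285872 (plus strand) and chr3:121660928-121661153 (minus strand, ended before the first annotated exon) and are written 5′ to 3′ on the strand of the gene.
EFR3B: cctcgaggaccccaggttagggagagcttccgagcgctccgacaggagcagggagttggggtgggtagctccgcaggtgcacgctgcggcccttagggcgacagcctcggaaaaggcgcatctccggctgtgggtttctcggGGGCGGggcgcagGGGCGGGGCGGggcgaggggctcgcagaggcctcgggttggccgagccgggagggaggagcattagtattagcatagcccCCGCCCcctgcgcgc
EFNA2: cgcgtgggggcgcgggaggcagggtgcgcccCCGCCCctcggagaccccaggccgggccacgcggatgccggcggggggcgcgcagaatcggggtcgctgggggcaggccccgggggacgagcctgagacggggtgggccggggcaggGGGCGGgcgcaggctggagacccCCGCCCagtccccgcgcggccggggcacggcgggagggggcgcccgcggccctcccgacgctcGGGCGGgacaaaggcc
HCLS1: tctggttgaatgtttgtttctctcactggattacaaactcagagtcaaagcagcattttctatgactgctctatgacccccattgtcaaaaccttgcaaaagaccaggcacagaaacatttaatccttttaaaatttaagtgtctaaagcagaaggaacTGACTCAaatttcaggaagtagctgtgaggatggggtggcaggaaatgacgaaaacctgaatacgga

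The stretches of *EFR3B* and *EFNA2* hold 4 GC boxes each, 2 of those in *EFR3B* overlapping by a base, and their GC content is 71.2% and 84.0%, against 40.3% for that of *HCLS1*. A GC box was found in 13 of the 16 promoters (81.3%) and in 77.0% of the 10137. The cAMP response element (TGACGTCA) was found in 0 of the 16 and in 3.85% of all, the related TGACGCAA in 0 and 1.11%, the composite TGATGCAA in 0 and 0.769%, and the TATA box (TATAAA) in 0 of the 16 and in 862 of the 10137. An AP-1 site was found in 1 of the 16 and 4.98% of all, and an E-box (CAGCTG) in 5 of the 16 (*SYT11*, *BEX5*, *FKBP2*, *PRR36* and *CELF5*) and 22.5% of all. The ratio of observed to expected CpG was taken at the first listed start of each gene only. It had a median of 0.821 in the 16 and 0.839 in all. Of the 16, 14 were above 0.6, the exceptions being *HCLS1* at 0.393 and *CNBD2*, listed with 0 CpG. These letter matches say nothing of binding.

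Markers of cell types were listed to check the labeled keratinocyte, and 0 of the 25 genes are on any of the 12 lists. Each list had at most 20 genes with a row among the 12499, and the rule left out the KRT and COL symbols on them. The count of 0 is therefore no result about the 25 genes. *KRT5* and *TP63*, which define basal keratinocytes, were measured in every library and were higher in LV-ATF7 by log2 fold changes of 3.65 and 3.90, while *KRT14* had a log2 fold change of -2.37 from a low level of 8.06 ± 6.69 CPM. In LV-NC replicate 1 *KRT14* had 7 counts, against 239 and 195 in replicates 2 and 3 and 26, 27 and 33 in LV-ATF7. *KRT5* had 1867 counts in that replicate against 6781 and 5939, and *KRT6A* 24 against 1815 and 1603. *TP63* was not lower there, with 341 against 240 and 271. The call of *KRT14* (adjusted p = 0.0461) was lost without any library other than LV-NC replicate 1 (adjusted p from 0.105 to 0.128), under the replicate block (0.0899) and by DESeq2 (0.0550). Against the 34.7% higher and 32.9% lower of all genes, 12 of 20 keratinocyte markers were higher and 4 lower, and their summed level ran from 4121 to 5061 CPM in LV-NC and from 11794 to 12579 in LV-ATF7. Simple epithelial markers gave 8 higher and 2 lower of 13, fibroblast markers 3 and 3 of 10, muscle markers 4 and 2 of 7 and neuronal markers 1 and 2 of 6, and the fibroblast counts lie near the shares of all genes. Of the glial, melanocyte, endothelial, monocyte, lymphocyte, hepatocyte and cancer-testis lists between 1 and 3 genes had a row that was tested, and *PTPRC*, *PECAM1* and *SNAP25* are among those not analyzed here. Summed levels of the lymphocyte, hepatocyte and monocyte lists stayed at or under 12.8 CPM in every library but were higher in LV-ATF7. In that order they ran from 1.18 to 3.70, 0.521 to 2.09 and 5.57 to 8.13 CPM in LV-NC. In LV-ATF7 they ran from 10.1 to 12.8, 9.71 to 12.7 and 9.38 to 12.7 CPM. Of their genes *IL7R*, *SERPINA1* and *CD14* were called higher (log2 fold changes 3.06, 3.29 and 2.33), and *BCL11B* and *CSF1R* lower (-1.55 and -2.18). The endothelial sum ran from 6.37 to 9.44 CPM in LV-NC and from 85.5 to 91.0 in LV-ATF7. *CDH5* made up most of that rise, from a mean of 3.08 to 84.4 CPM. *VWF* was also called higher (log2 fold change 2.14), and *ESAM* was called lower (-2.41). The glial sum ran from 111 to 122 and from 319 to 344. In it *SLC1A3* rose from a mean of 17.5 to 251 CPM, while *MBP* and *GFAP* were not called. In the other direction, the melanocyte sum ran from 17.5 to 24.8 CPM in LV-NC and from 12.2 to 13.0 in LV-ATF7. Its genes differed, *MITF* being called lower (log2 fold change -1.21) and *PMEL* higher (1.13). The cancer-testis sum, which is *MAGEA12* alone, ran from 42.7 to 50.6 and from 28.5 to 32.1. In bulk RNA a fall in the number of cells of a kind and a fall in RNA per cell cannot be told apart, and the part of cell makeup in the difference of the 25 genes was not tested.

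By name families, set beside 25 of all 12499 genes, the 25 included 1 of 27 immunoglobulin-type adhesion molecules (*CADM2*), 1 of 33 receptor tyrosine kinase and ephrin genes (*EFNA2*), 2 of 85 genes of synaptic vesicles and exocytosis (*EFR3B* and *SYT11*), 1 of 61 homeobox genes outside HOX (*PROX1*), 1 of 94 G protein-coupled receptors (*GALR2*) and 1 of 287 kinases, phosphatases and adaptors (*PAG1*). Among 249 metabolic and detoxification genes the names matched *HS3ST3B1* and also *GALR2*, which is no enzyme. The 25 held 0 of 27 cadherins, 111 ion channels, 255 transporters, 423 zinc finger genes, 173 other lineage transcription factors, 188 immune and cytokine genes, 154 cytoskeleton and motor genes, 137 matrix and secreted factors and 47 cancer-testis and germline genes. These counts were not tested.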

How the data were processed

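RNA-seq libraries of HaCaT cells, 3 labeled LV-NC and 3 labeled LV-ATF7, were grouped by their deposited labels. The authors deposited raw counts of reads on 12499 genes; the submitters' notes name GRCh38, and the aligner, counting program and strandedness are not given in the sources used here. Every gene had at least 51 counts over the 6 libraries. The authors also deposited FPKM, not used for any test, and the results of their own comparison (fold changes, p-values), not used. All value columns were matched to samples, and 33 genes without a symbol were kept by identifier. The 25 genes and all lists were chosen with earlier results of these data known; partner genes were listed from background knowledge after the 25 genes were known, and all 25 are named, as the fixed rule for named genes (the 30 highest) covers them.

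TMM scaling was followed by edgeR 4.0.16 (quasi-likelihood, no covariates, R 4.3.3) on the counts of 12462 genes passing filterByExpr, with Benjamini-Hochberg adjustment and a threshold of 0.05. DESeq2 1.42.0, other scalings, filters, count limits, the replicate block and each library left out were alternatives. Exact binomial intervals (95%) cover counting error only. The fit was run on simulated counts in which far fewer genes changed than were called here, in equal numbers up and down. That run cannot show how the fit performs where most genes are called. Exon lengths and positions are from GENCODE 29 (GRCh38), which held 12485 of the identifiers. Python 3.11.15 was used. The labels number the replicates and do not say that equal numbers are paired. Correlations of deviations from the group means between libraries of the same number were 0.0583, -0.0209 and 0.0649. They cannot decide whether cultures were paired, since the deviations come from means of 3 libraries and sum to 0.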

Additional observations from a re-analysis of the deposited data

How the results depend on the processing

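The number of genes found depended on the limits more than on the libraries: 2 genes were found at 100 and 5 counts, 5 at 50 and 3, 58 at 50 and 20 and 70 at 25 and 10, against 25. Leaving out each library, which can only add genes under these limits, gave 27 to 47, the highest without LV-NC replicate 1. Counts scaled by TMM first gave 22, losing *BEX5*, *ELAPOR2* and *SMPD3*. The median log2 difference of -4.08 was -4.57 with a prior count of 0.5 and -4.22 by library size only, which itself moved the median of all genes by -0.16, and -4.12 to -4.01 without each library. Under the replicate block, 8210 genes were called in place of 8429, 8068 of them shared, and 8, 6 and 4 genes of the heparan sulfate, sphingolipid and EFR3 lists were called lower, the counts without it. Without each library 7290 to 10011 genes were called. Single genes followed under the alternatives were 65 named check genes, relatives, partners and neighbors that had passed in the main fit. Genes not called there were left out, so a turn of direction was unlikely from the start. Of 774 values of the 65 genes under alternatives chosen after seeing the data, 0 turned direction and 29 lost the call. The calls lost were in *KRT14*, *MKI67*, *LYN*, *CADM4*, *KIF18B* and *PLCB3*. Library size only raised the sphingolipid count from 6 to 9 and the neighbors called lower from 11 to 15. Depth limits the LV-ATF7 side, where 5 genes had 3 counts or fewer in every library, so the size of their ratios is known only within wide intervals.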
